A study of Rattus norvegicus with 9 samples.

Results

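The interferon-induced genes Ifit1, Ifit2, Ifit3, Mx1, Mx2, Dtx3l, Parp9, Irf7, Isg15 and Oas1a were followed in rat kidney. They were found through the RefSeq identifier of each array probe, and all 10 genes had a probe. Each was measured by 1 probe of 1 spot, and all 10 probes were among the 16592 of 24684 probes that carried enough signal to be compared. The array held 13903 genes with a symbol. These genes were chosen because earlier looks at the same arrays had shown large strain differences for Ifit1, Mx2 and Dtx3l. Their levels and differences are therefore given as a description. Where limma counts are printed for these genes, nothing is read from them.

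The kidneys came from male rats of 3 inbred strains, with 3 samples per strain, each on its own array. Salt feeding raises the blood pressure of Dahl S rats, and the Dahl R line was selected for resistance to salt. Spontaneously hypertensive rats (SHR) develop high blood pressure without added salt. All rats shared a birth date, were weaned at 30 days, then received the low-salt chow with 0.3% salt, and were 53 days old. The labels name no transgene and no drug. Total RNA from whole kidney was labelled with Cy3 and hybridised to a one-colour array, so a level is the log2 of the spot signal relative to the 75th percentile of its array. A level of 0 is the 75th percentile, and a difference of 1 is a 2-fold difference in signal. The probe levels of different genes are not on a common scale, so each gene is compared only with itself across strains.

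Interferons are secreted when cells sense viral nucleic acid. Type I interferons bind the Ifnar1 and Ifnar2 receptor, the kinases Jak1 and Tyk2 then activate transcription factors that act with Irf9, and the complex binds interferon-stimulated response elements in the promoters of their target genes. The targets include antiviral effectors, sensors that raise sensitivity to the next infection, and the regulator Irf7, which drives further interferon production. Many of them also have a low tonic expression in uninfected tissue, and renal tubule, endothelial and resident immune cells can all respond.

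The sequence just upstream of the start of transcription is where such elements usually lie, so the promoters of the genes are shown first. RefSeq windows of 300 bases, 250 before and 50 after the annotated start in the GRCr8 build, were found for 6 of the 10 genes and were searched on both strands for GAAANNGAAA, the core letters of the response element, whose reverse complement is TTTCNNTTTC. The stretch from 100 bases before to 30 bases after the start is printed for each, 5′ to 3′ on the strand of the gene, with the matches in capitals. The stretches lie at chr1:241527226-241527355 (plus strand) for Ifit3, chr11:50294577-50294706 (minus strand) for Mx1, chr11:78320125-78320254 (plus strand) for Dtx3l, chr11:78318982-78319111 (minus strand) for Parp9, chr1:205799994-205800123 (minus strand) for Irf7 and chr12:41330366-41330495 (plus strand) for Oas1a.
Ifit3: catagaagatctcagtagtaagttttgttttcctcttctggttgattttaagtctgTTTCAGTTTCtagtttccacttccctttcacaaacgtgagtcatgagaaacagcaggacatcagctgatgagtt
Mx1: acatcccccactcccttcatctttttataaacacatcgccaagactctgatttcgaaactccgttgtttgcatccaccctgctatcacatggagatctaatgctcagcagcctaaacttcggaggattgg
Dtx3l: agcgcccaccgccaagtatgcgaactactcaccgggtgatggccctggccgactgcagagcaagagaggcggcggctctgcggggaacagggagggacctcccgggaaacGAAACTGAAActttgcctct
Parp9: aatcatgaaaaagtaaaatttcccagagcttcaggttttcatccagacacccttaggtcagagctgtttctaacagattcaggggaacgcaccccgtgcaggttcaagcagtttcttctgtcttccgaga
Irf7: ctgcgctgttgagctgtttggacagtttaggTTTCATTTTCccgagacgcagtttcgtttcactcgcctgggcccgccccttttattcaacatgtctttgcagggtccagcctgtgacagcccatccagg
Oas1a: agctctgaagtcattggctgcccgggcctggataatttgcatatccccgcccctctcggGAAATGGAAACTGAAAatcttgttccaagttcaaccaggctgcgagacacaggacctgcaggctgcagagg

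Ifit3 held 1 match at bases -44 to -35 from the start, read on the opposite strand. Irf7 also held 1 match on the opposite strand, at bases -69 to -60. Oas1a held 2 overlapping matches on its own strand, at -41 to -32 and -35 to -26, and Dtx3l held 1 downstream of its start, at 11 to 20. The windows of Mx1 and Parp9 held no match to these letters. The motif was present in 4 of 6 windows of these genes (66.67%), in 30 of 58 windows of other listed type I interferon targets (51.72%) and in 1312 of all 33469 windows (3.92%). A match describes the letters and was not tested as a binding site.

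**Figure D1:**
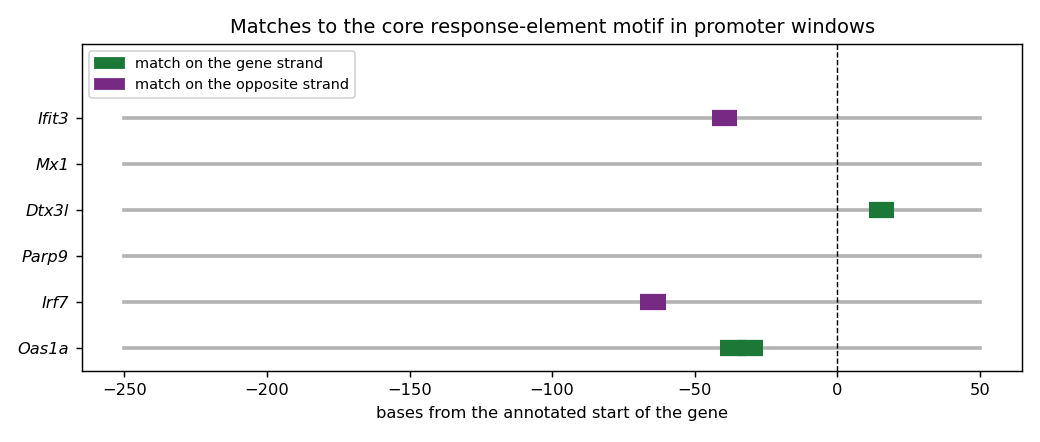
Position of the matches to the core response-element motif in the 300-base promoter windows of 6 genes, in bases from the annotated start (dashed line); each grey line is 1 window. Green blocks are matches on the gene strand (Dtx3l and Oas1a) and purple blocks matches on the opposite strand (Ifit3 and Irf7), and the lines of Mx1 and Parp9 carry no block.

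The arrays were of similar quality except SHR replicate 3. The share of probes well above background was 60.1% to 70.3% on 8 arrays and 43.1% on SHR replicate 3, where the 75th percentile of the signal was 1462 against 2120 to 2751. Slides were told apart by the scan identifier in the file headers, so a slide here is the set of arrays that share 1 identifier. Slide 1 held the Dahl S arrays and Dahl R replicate 1. Slide 2 held the other Dahl R arrays with SHR replicates 1 and 2, and slide 3 held SHR replicate 3 of this set. No slide held both Dahl S and SHR. The arrays' number limits the precision of every value. The kidney identity of the samples was checked on markers that had passed the signal filter (well above background on 3 or more arrays). All 9 tested proximal tubule markers and all 7 tested distal tubule and collecting duct markers were well above background on every array. Pvalb, a listed distal tubule marker, failed the filter, being well above background on 1 Dahl R array only. Of 9 tested glomerular and vascular markers, 8, 8 and 7 were well above background on every array of Dahl S, Dahl R and SHR.

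The strains differed by large amounts at 3 of the genes. Ifit1, an antiviral protein that binds foreign RNA lacking the host cap, and Dtx3l, a ubiquitin ligase that works with Parp9, gave their highest signal in SHR. The reported differences were more than 6 log2 units, and some other processing settings gave smaller ones. Mx2, a GTPase that blocks viruses, was highest in Dahl R, intermediate in SHR and lowest in Dahl S. The other 7 genes, Ifit2, Ifit3, Mx1, Parp9, Irf7, Isg15 and Oas1a, differed by less than 1 log2 unit in each comparison.

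**Figure D2:**
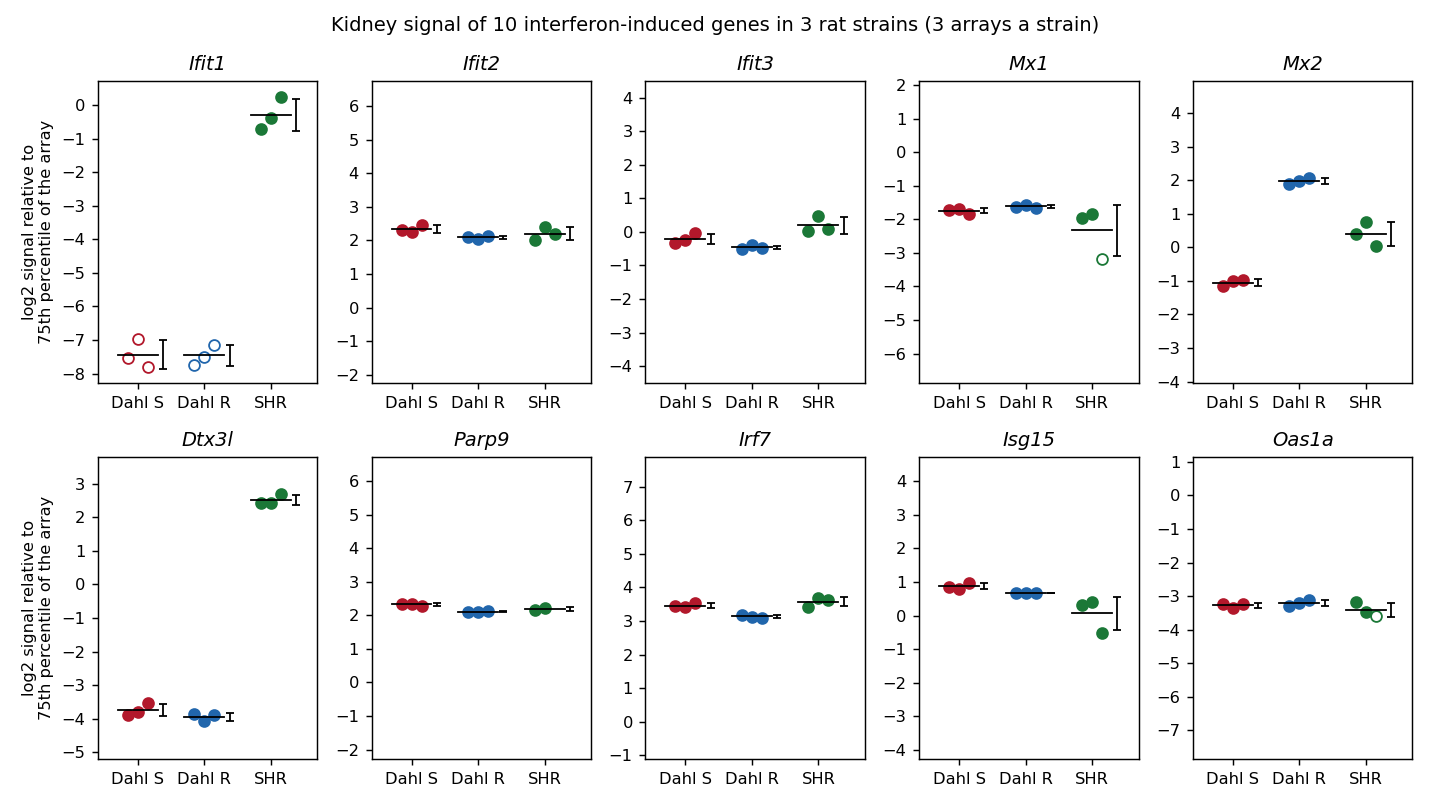
Level of each gene on every array, as log2 signal relative to the 75th percentile of the array, for Dahl S, Dahl R and SHR (3 arrays each); points are arrays, open points are spots not well above background, and lines with bars are the mean and SD. The 6 Dahl arrays lie between -7.80 and -6.97 for Ifit1 while the SHR arrays lie between -0.70 and 0.23, and the 3 strains form 3 separate levels for Mx2.

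Ifit1, Ifit2 and Ifit3 are neighbouring genes on chromosome 1 that encode tetratricopeptide-repeat proteins made in response to interferon. The Ifit1 level was -7.53, -6.97 and -7.80 on the Dahl S arrays, -7.74, -7.49 and -7.14 on the Dahl R arrays, and -0.70, -0.40 and 0.23 on the SHR arrays. Every SHR array was far above every Dahl array, and the Ifit1 spot was not well above background on any of the 6 Dahl arrays. Its processed signal was 11.5 to 19.5 in the Dahl arrays and 1671 to 1716 in SHR. The SHR mean was -0.29 ± 0.47 (SD, n = 3). It was 67.1-fold above a floor set for Dahl S and 112-fold above that for Dahl R. The floor was the lowest signal that counted as well above background on each Dahl array, or the Ifit1 spot where that was higher. These folds depend on the floor and are not strict minima. The measured Dahl means were -7.43 ± 0.42 and -7.46 ± 0.30 (SD, n = 3 each), and the fitted differences were 7.17 ± 0.30 (SE) for SHR minus Dahl R and -7.14 ± 0.30 (SE) for Dahl S minus SHR. Since the Dahl spots were not measured above background, these fitted values are not exact, and normexp background correction gave 4.46 and -3.02.

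Ifit2 and Ifit3, which pair with Ifit1 in a complex that binds RNA, did not have this pattern. The Ifit2 level was 2.31, 2.25 and 2.47 in Dahl S, 2.09, 2.03 and 2.14 in Dahl R, and 2.02, 2.39 and 2.20 in SHR. The SHR arrays overlapped with both Dahl strains. The Ifit3 level was -0.33, -0.25 and -0.03 in Dahl S, -0.50, -0.40 and -0.49 in Dahl R, and 0.03, 0.48 and 0.07 in SHR. Here the 3 strains did not overlap, in the order Dahl R, Dahl S, SHR. The SHR-to-Dahl R difference was 0.66 ± 0.14 (SE), against 6.81 for Ifit1 over its Dahl R floor. The closest arrays, Dahl S replicate 3 and SHR replicate 1, lay at -0.03 and 0.03, so the order of these neighbours rested on a gap smaller than the SD of either strain (0.15 and 0.25).

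Mx1 and Mx2 lie close together on chromosome 11 and encode dynamin-like GTPases that act against viruses at different sites in the cell. The Mx2 level was -1.16, -1.01 and -0.97 in Dahl S, 1.88, 1.99 and 2.06 in Dahl R, and 0.41, 0.74 and 0.04 in SHR. No strain overlapped with another. Dahl R exceeded Dahl S by 8.14-fold (Dahl S minus Dahl R -3.03 ± 0.17, SE) and SHR by 2.99-fold (SHR minus Dahl R -1.58 ± 0.17, SE), and SHR exceeded Dahl S by 2.72-fold (Dahl S minus SHR -1.44 ± 0.17, SE). The difference between the Dahl strains ranked 55th in size among the 16592 probes.

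The Mx1 spot differed less between the strains than that of Mx2. Its Dahl R arrays also lay above those of both other strains, but its Dahl S and SHR arrays overlapped. The Mx1 level was -1.73, -1.68 and -1.83 in Dahl S, -1.62, -1.57 and -1.66 in Dahl R, and -1.96, -1.83 and -3.20 in SHR. The lowest value, on SHR replicate 3, came from a spot not well above background. Dahl S and Dahl R differed by -0.13 ± 0.32 (SE), with their closest arrays at -1.68 and -1.66. The SE shares 1 spread over the 3 strains, and the SD was 0.08 in Dahl S, 0.05 in Dahl R and 0.75 in SHR. The SHR-minus-Dahl R difference of -0.71 ± 0.32 (SE) became -0.28 without SHR replicate 3.

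Dtx3l and Parp9 are neighbouring genes on chromosome 11 whose proteins form a complex that marks chromatin and other proteins with ubiquitin. The Dtx3l level was -3.89, -3.80 and -3.53 in Dahl S, -3.86, -4.08 and -3.90 in Dahl R, and 2.41, 2.43 and 2.68 in SHR. All 9 spots were well above background, the Dahl strains overlapped, and every SHR array stood above them. SHR exceeded Dahl R by 87.6-fold (SHR minus Dahl R 6.45 ± 0.13, SE) and Dahl S by 76.1-fold (Dahl S minus SHR -6.25 ± 0.13, SE). These differences were the 8th and 10th largest in size of all tested probes. Over the other processing settings, Dahl S minus SHR ranged from -6.56 to -4.91 and SHR minus Dahl R from 5.85 to 6.74. Between the Dahl strains, normexp background correction gave 0.94 for Dahl S minus Dahl R, against 0.20 as reported.

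Parp9, the ADP-ribosyltransferase partner of Dtx3l, was nearly level across strains. Its level was 2.35, 2.35 and 2.28 in Dahl S, 2.10, 2.09 and 2.14 in Dahl R, and 2.15 and 2.23 on SHR replicates 1 and 2. The SHR replicate 3 spot carried an outlier mark and was left out; its level was 1.74. SHR minus Dahl R was 0.07 ± 0.09 (SE, n = 2 and 3), beside 6.45 for Dtx3l. In the promoter stretches above, Dtx3l carried a match to the response-element letters after its start and Parp9 carried none in its window. Ifit3, Irf7 and Oas1a also carried matches and differed by less than 1 log2 unit in each comparison. The windows come from the GRCr8 build, and the strains' own promoter sequences were not compared. Whether the letters bear on the strain differences was not tested.

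**Figure D3:**
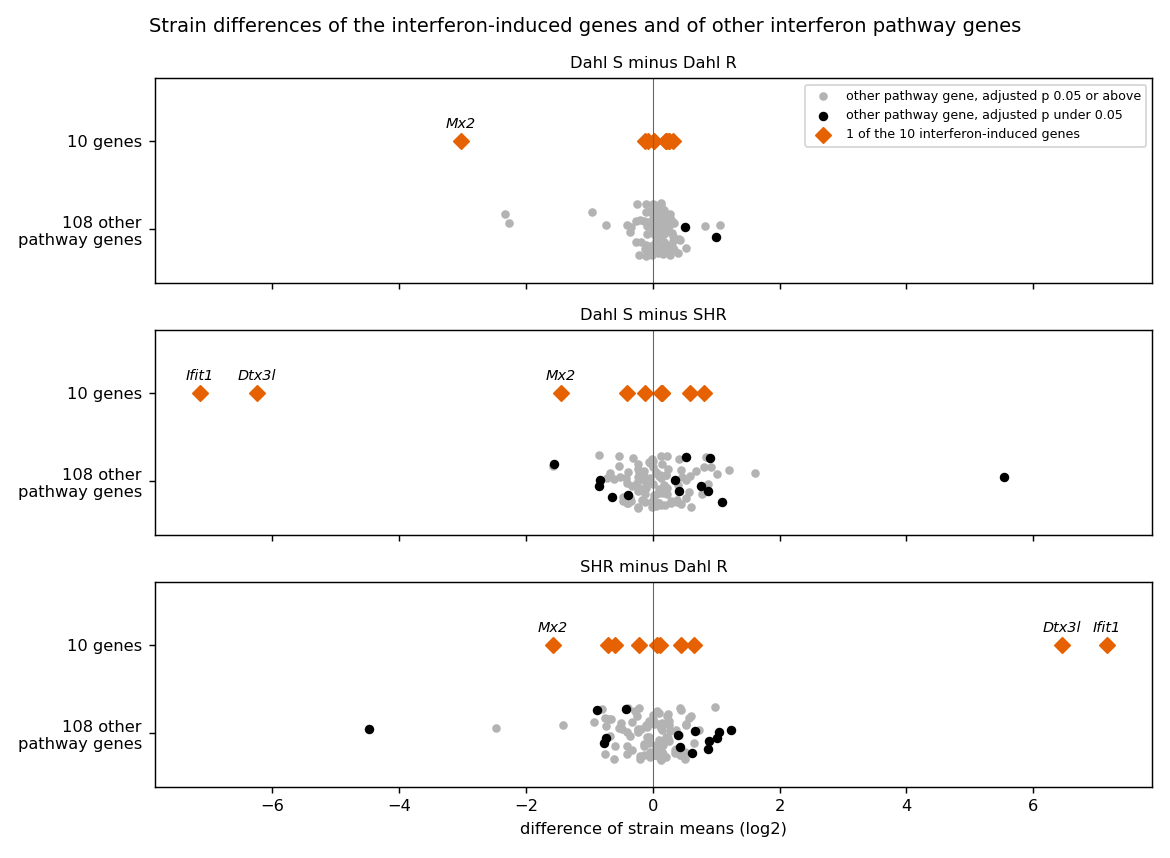
Difference of strain means (log2) in the 3 comparisons, for the 10 genes (orange diamonds) and the 108 other pathway genes tested (circles, black where the adjusted p was under 0.05); each strain enters 2 of the comparisons, which therefore share arrays. Ifit1 and Dtx3l lie near 7.17 and 6.45 for SHR minus Dahl R, Mx2 at -3.03 for Dahl S minus Dahl R, and the other 7 genes within 1 log2 unit of 0.

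Irf7, the transcription factor that amplifies interferon production, had levels of 3.43, 3.41 and 3.53 in Dahl S, 3.19, 3.13 and 3.09 in Dahl R, and 3.42, 3.69 and 3.63 in SHR. Dahl R was the lowest strain and overlapped with neither of the others, while Dahl S and SHR overlapped. SHR minus Dahl R was 0.44 ± 0.10 (SE) and Dahl S minus Dahl R was 0.32 ± 0.10 (SE).

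Isg15 encodes a ubiquitin-like protein that is attached to other proteins after interferon treatment. Its level was 0.85, 0.80 and 0.97 in Dahl S, 0.67, 0.66 and 0.67 in Dahl R, and 0.32, 0.39 and -0.51 in SHR. The order was Dahl S, Dahl R, SHR with no overlap, the reverse of Ifit1 and Dtx3l with respect to SHR. Dahl S minus SHR was 0.81 ± 0.22 (SE) and became 0.52 without SHR replicate 3, and SHR minus Dahl R went from -0.60 ± 0.22 (SE) to -0.31.

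Oas1a encodes an enzyme that makes oligoadenylate from ATP when it meets double-stranded RNA, which activates RNase L. Its level was -3.23, -3.36 and -3.23 in Dahl S, -3.28, -3.21 and -3.10 in Dahl R, and -3.18, -3.46 and -3.59 in SHR. The 3 strains overlapped, and the SHR replicate 3 spot was not well above background. The largest of its differences was SHR minus Dahl R, at -0.22 ± 0.12 (SE).

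The 10 genes differed between strains in both directions. Between Dahl S and Dahl R, 7 of 10 genes had arrays that did not overlap (5 higher and 2 lower in Dahl S), against 31.1% of all tested probes. Between Dahl S and SHR 6 did not overlap (2 higher and 4 lower in Dahl S), against 37.9% of all probes. Between SHR and Dahl R 8 did not (5 higher and 3 lower in SHR), against 38.7%. Parp9 is 1 of these 8 by its 2 usable SHR arrays. Its left-out SHR replicate 3 spot, at 1.74, lay below every Dahl R array. Nothing is read from these counts either, since the genes were chosen on the same arrays. The limma threshold was not a test of these genes, which were chosen on the same arrays. Ifit1 met the signal filter through its 3 SHR arrays alone. By limma with Benjamini-Hochberg adjustment at 0.05, 1 gene (lower), 4 genes (1 higher, 3 lower) and 5 genes (4 higher, 1 lower) passed in these comparisons. The shares of all probes that passed were 1.40% (0.705% higher, 0.699% lower), 15.7% (7.08% higher, 8.62% lower) and 13.0% (7.56% higher, 5.49% lower), and nothing is read from the genes' counts, since the genes were chosen on these differences. Their median differences were 0.21 for Dahl S minus Dahl R, 0.01 for Dahl S minus SHR and 0.09 for SHR minus Dahl R, beside 0.02, -0.09 and 0.11 over all tested probes.

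Within a strain, the arrays were compared by how many genes lay above their strain mean. Of the 10 genes, 3, 4 and 7 were above their strain mean on the Dahl S arrays, 4, 3 and 7 on the Dahl R arrays, and 4, 7 and 3 on the SHR arrays (3 of 9 with a value on SHR replicate 3). The median deviation of the genes from the strain mean was between -0.12 and 0.15 on every array. The largest single deviation was that of Mx1 on SHR replicate 3, 0.86 below its strain mean.

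The differences of Ifit1, Dtx3l and Mx2 were present within slides. On slide 2, the 2 SHR arrays exceeded the 2 Dahl R arrays by 6.77 for Ifit1 and 6.41 for Dtx3l, and SHR minus Dahl R was -1.45 for Mx2. On slide 1, the 3 Dahl S arrays minus the 1 Dahl R array gave -2.93 for Mx2, 0.31 for Ifit1 and 0.12 for Dtx3l. Dahl S and SHR shared no slide, so their direct difference has no within-slide value. Of the smaller differences on slide 2, Ifit3 was 0.70, Irf7 0.45, Mx1 -0.28 and Isg15 -0.31.

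**Figure D4:**
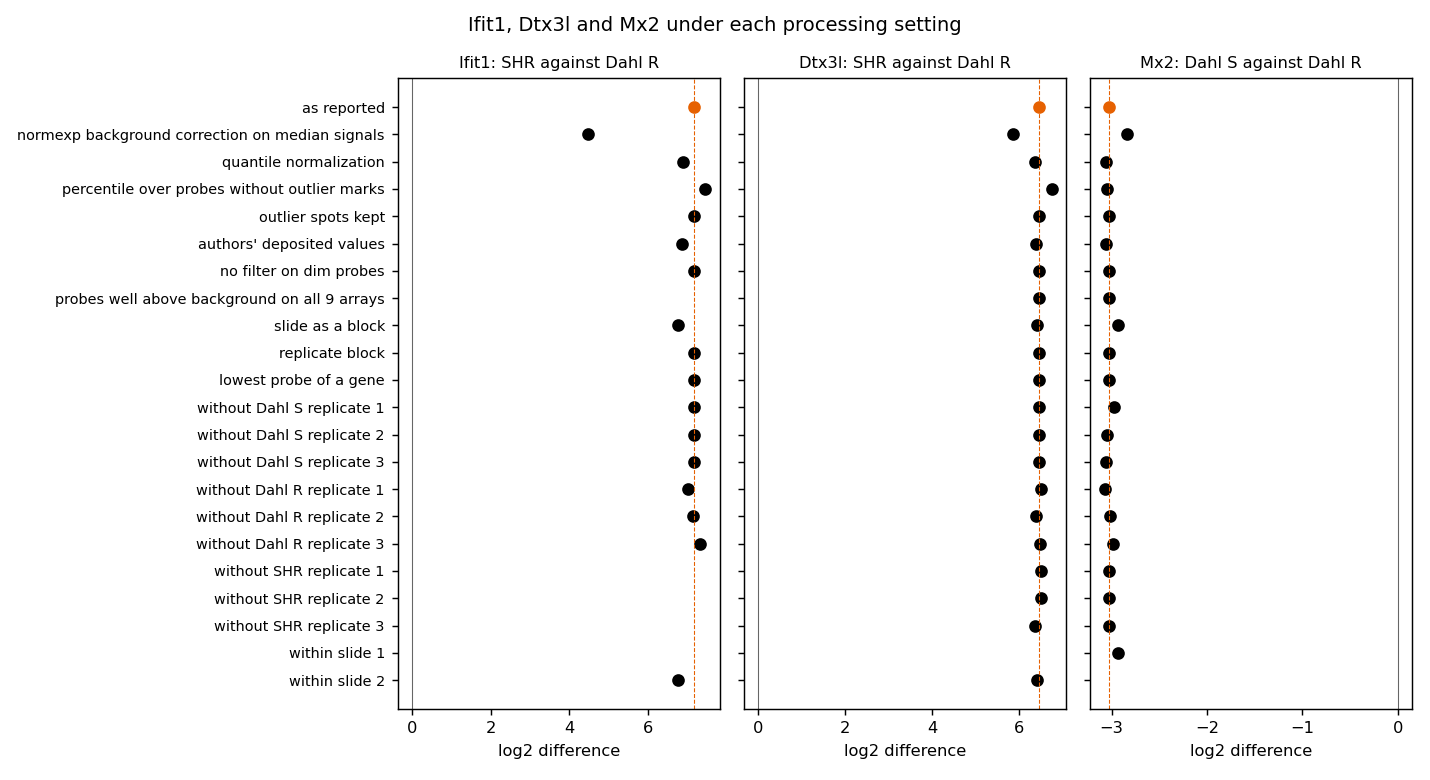
Log2 difference (horizontal axis) of Ifit1 and Dtx3l for SHR minus Dahl R and of Mx2 for Dahl S minus Dahl R, with 1 point per processing setting, the reported value in orange and no point where a setting gave no value. Every setting shown keeps the sign of Dtx3l for SHR minus Dahl R (5.85 to 6.74) and of Mx2 for Dahl S minus Dahl R (-3.07 to -2.84), and normexp background correction gives the lowest Ifit1 value for SHR minus Dahl R, 4.46.

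Marker sums of several other cell types differed between SHR and the Dahl strains. The summed signal of 16 leukocyte markers, in multiples of the 75th percentile, was 47.7 to 55.6 in Dahl S, 43.9 to 47.5 in Dahl R and 32.8 to 40.8 in SHR. Signals were summed off the log scale, so the brightest summed markers, Csf1r and Tyrobp, weigh most in it. The sum holds only markers with a usable value on every array and so leaves out Lyz2, a bright myeloid marker, at 6.39 ± 0.10, 6.48 ± 0.12 and 6.32 ± 0.27 (SD; 3, 3 and 2 arrays) in Dahl S, Dahl R and SHR. Of 20 tested leukocyte markers, limma with Benjamini-Hochberg adjustment called 5 higher and none lower in Dahl S than in SHR, and 1 higher and 4 lower in SHR than in Dahl R; between the Dahl strains it called 0, and 3 had an unadjusted p under 0.05. The called share was 25% in each SHR comparison, beside 15.7% (Dahl S and SHR) and 13.0% (SHR and Dahl R) of all probes. Ptprc, the pan-leukocyte marker, was well above background on all 9 arrays and differed by 0.34 ± 0.19 (SE) between Dahl S and SHR (adjusted p = 0.274, limma), whereas Mrc1, a macrophage receptor, differed by 1.29 ± 0.15 (adjusted p = 0.0013, limma). Cd163 was above background on no array. The sum of 6 glomerular and vascular markers was 28.7 to 30.8 in Dahl S, 28.1 to 29.9 in Dahl R and 37.8 to 54.2 in SHR, and that of 5 distal tubule and duct markers 401 to 451, 388 to 439 and 472 to 638. The sum of 4 proximal tubule markers overlapped between the strains, at 549 to 605, 496 to 588 and 531 to 608. The part of these cells in the levels of the interferon-induced genes was not tested, and in whole kidney a change in the number of cells of a type cannot be told apart from a change in RNA per cell.

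The interferon system around these genes was read from lists of 174 other genes, of which 119 were on the array and 108 were tested. The interferon genes themselves gave almost no signal: of 5 on the array, Ifna4 and Ifng were each well above background on 1 of 9 arrays, and Ifna5, Ifnb1 and Ifnk on none. Between Dahl S and Dahl R, 2 of the 108 genes passed limma with Benjamini-Hochberg adjustment (1.85%), both higher in Dahl S. Between Dahl S and SHR 13 passed (12.0%; 8 higher and 5 lower in Dahl S), and between SHR and Dahl R 14 passed (13.0%; 9 higher and 5 lower in SHR). These shares stood beside 1.40%, 15.7% and 13.0% of all probes. The median differences of the 108 genes were 0.11, 0.03 and 0.04, against 0.03, -0.06 and 0.09 over all tested genes. Without SHR replicate 3 the counts were 3, 25 and 24; without Dahl S replicates 2 or 3 the Dahl S-to-SHR count was 6, and without Dahl R replicate 1 the SHR-to-Dahl R count was 7.

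The receptor and signalling genes gave no call in any strain comparison, at a precision that varied between genes. Of 8 tested receptor and signalling genes, limma with Benjamini-Hochberg adjustment called 0 in any comparison, with an unadjusted p under 0.05 for 0 between the Dahl strains, 3 between Dahl S and SHR and 2 between SHR and Dahl R. For SHR minus Dahl R, Stat2 differed by 0.01 ± 0.18 (SE; adjusted p = 0.984), Irf9 by 0.23 ± 0.10 (0.195), Jak1 by 0.44 ± 0.16 (0.116) and Ifnar1 by -0.23 ± 0.41 (0.744). Without SHR replicate 1 Jak1 passed in both SHR comparisons (SHR minus Dahl R 0.59, adjusted p = 0.0418; Dahl S minus SHR -0.55, adjusted p = 0.0404, limma). Ifnar1 ranged from -0.52 to 0.32 for SHR minus Dahl R over the alternatives, with 0.32 without SHR replicate 3. Ifngr1 differed by 0.06 ± 0.14 (adjusted p = 0.809; 1 usable SHR array), and Irf3, which switches on interferon genes, by 0.21 ± 0.11 (adjusted p = 0.271). Usp18, which shuts off the type I receptor, gave -0.36 ± 0.12 in SHR minus Dahl R (adjusted p = 0.0912) and -0.36 ± 0.12 in Dahl S minus Dahl R (adjusted p = 0.304). The interferon regulatory factors other than Irf7, 8 genes, had 0 calls in each comparison, with 1, 0 and 1 at an unadjusted p under 0.05.

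Among the sensors, Ifih1, which detects long double-stranded RNA in the cytoplasm, was lowest in Dahl R. Dahl S exceeded Dahl R by 0.51 ± 0.09 (adjusted p = 0.0448, limma) and SHR exceeded it by 0.67 ± 0.09 (adjusted p = 0.00314, limma). The Ifih1 call between the Dahl strains was lost in 16 of 20 alternatives (adjusted p from 0.0152 to 1.00), among them leaving out any single array except SHR replicate 3. Tlr3, the endosomal receptor for double-stranded RNA, was higher in Dahl S than in SHR by 0.76 ± 0.18 (adjusted p = 0.0347, limma; 2 usable Dahl S arrays), a call lost in 12 of 19 alternatives, 5 of them the removal of a single Dahl array (Dahl S replicate 2 or 3, or any Dahl R array). Trim25, a ubiquitin ligase of the RNA-sensing pathway, was higher in SHR than in Dahl R by 1.05 ± 0.20 (adjusted p = 0.0133) and lower in Dahl S than in SHR (-0.84 ± 0.20, adjusted p = 0.0275). The calls of Trim25 were lost in 4 of 20 alternatives for SHR against Dahl R, including the removal of Dahl R replicate 1 or 3, and in 8 of 19 for Dahl S against SHR, including the removal of Dahl S replicate 2 or 3 or Dahl R replicate 3.

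Of 51 other type I interferon targets, 2 were higher in Dahl S than in Dahl R, 3 were higher and 3 lower in Dahl S than in SHR, and 7 were higher and 2 lower in SHR than in Dahl R. These are 3.92%, 11.8% and 17.6% of the list, beside 1.40%, 15.7% and 13.0% of all probes. Phf11 exceeded its Dahl R level in both other strains, by 0.99 ± 0.09 in Dahl S (adjusted p = 0.00221) and 0.89 ± 0.09 in SHR (adjusted p = 0.000871). Tor3a was higher in SHR than in Dahl R by 0.86 ± 0.14 (adjusted p = 0.0064), and Phf11b by 1.24 ± 0.28 (adjusted p = 0.0258), with 2 of 3 arrays of each of these strains well above background for Phf11b. The Phf11b call was lost in 11 of 19 alternatives, among them the removal of SHR replicate 1 or of any Dahl R array, and its difference was 0.05 with quantile normalization and with the authors' deposited values. Ifi27 and Epsti1 went the other way: SHR minus Dahl R was -0.88 ± 0.11 (adjusted p = 0.00448) for Ifi27 and -0.76 ± 0.12 (adjusted p = 0.00727) for Epsti1. Against Dahl S they were lower in SHR too, with Dahl S minus SHR at 0.90 ± 0.11 (adjusted p = 0.00358) and 0.87 ± 0.12 (adjusted p = 0.00355). The Epsti1 call against Dahl S was lost in 2 of 19 alternatives, with slide as a block (difference 0.47) and with the percentile without outlier spots, and that of Ifi27 in 1 of 19, under normexp. Trim14 was lower in Dahl S than in SHR (-1.57 ± 0.39, adjusted p = 0.0324; 1 of 3 Dahl S and 2 of 3 SHR arrays well above background), a difference that turned to 0.22 under normexp background correction and lost its call in 10 of 18 alternatives, among them the removal of any Dahl S array, of Dahl R replicate 2 or 3, or of SHR replicate 2.

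Of 25 tested genes listed as interferon gamma targets, 3 were higher and 1 lower in Dahl S than in SHR, and 1 was higher and 1 lower in SHR than in Dahl R. The list does not mean that a gene answers to interferon gamma alone. Between the Dahl strains limma called 0, with 3 at an unadjusted p under 0.05. The shares of 16% and 8% in the SHR comparisons stood beside 15.7% and 13.0% of all probes. Ubd, a ubiquitin-like modifier, was lower in SHR than in Dahl R by -4.47 ± 0.44 (adjusted p = 0.000729), and Dahl S exceeded SHR by 5.54 ± 0.44 (adjusted p = 0.000227); its spot was above background on 2 of the 3 SHR arrays. Cxcl10, a chemokine that attracts T cells, was higher in Dahl S than in SHR by 1.09 ± 0.21 (adjusted p = 0.013), a call lost in 3 of 19 alternatives, among them slide as a block (difference 0.67). SHR minus Dahl R for Cxcl10 was -0.75 ± 0.21 (adjusted p = 0.057, limma). Tap1, which carries peptides to class I molecules, was higher in SHR than in Dahl R by 1.02 ± 0.09 (adjusted p = 0.000345) and lower in Dahl S than in SHR (-0.85 ± 0.09, adjusted p = 0.000718, a call lost in 1 of 19 alternatives). The Ubd calls, and that of Tap1 for SHR against Dahl R, held in every alternative that gave a value. Ubd was lower and Tap1 higher in SHR than in either Dahl strain, the strain with the high Ifit1 and Dtx3l signals.

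The genes beside the 3 most different members were read in the order of the RefSeq annotation, a choice made after their values were seen. Around Ifit1, the 4 measured neighbours outside the list were Lipa, Pank1, Kif20b and Ankrd1. They differed by 0.10, 0.12, 0.16 and 0.88 for SHR minus Dahl R, with adjusted p (limma) from 0.112 for Ankrd1 to 0.727 for Pank1. These values, and those of Ifit2 and Ifit3, were all below 6.81, the difference of Ifit1 over its Dahl R floor.

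Around Dtx3l, Parp9 and Hspbap1 lie on either side. Hspbap1 differed by -0.40 ± 0.18 (adjusted p = 0.203, limma), but the next measured genes on that side differed more. Slc49a4, a membrane transporter, was lower in SHR than in Dahl R (-1.11 ± 0.11, adjusted p = 0.00171), and Pdia5, a protein disulphide isomerase, was higher (2.33 ± 0.08, adjusted p = 4.65e-06). On the other side Wdr5b and Kpna1 differed by 0.07 and 0.31 (adjusted p = 0.675 and 0.505). Around Mx2, Fam3b was higher in Dahl S than in Dahl R by 1.32 ± 0.19 (adjusted p = 0.0188, limma), opposite to Mx2. Fam3b was lower in SHR than in Dahl R (-0.82 ± 0.19, adjusted p = 0.0307), the direction of Mx2. Dahl S exceeded SHR by 2.14 ± 0.19 for Fam3b (adjusted p = 0.000392), opposite to Mx2. For SHR minus Dahl R, Bace2, Tmprss2 and Ripk4 differed by -0.09, 0.44 and 0.10 (adjusted p = 0.784, 0.0567 and 0.721). C2cd2 was higher in SHR than in Dahl R by 1.13 ± 0.14 (adjusted p = 0.00259). The Fam3b spot was above background on 2 of the 3 SHR arrays and on every Dahl array.

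**Figure D5:**
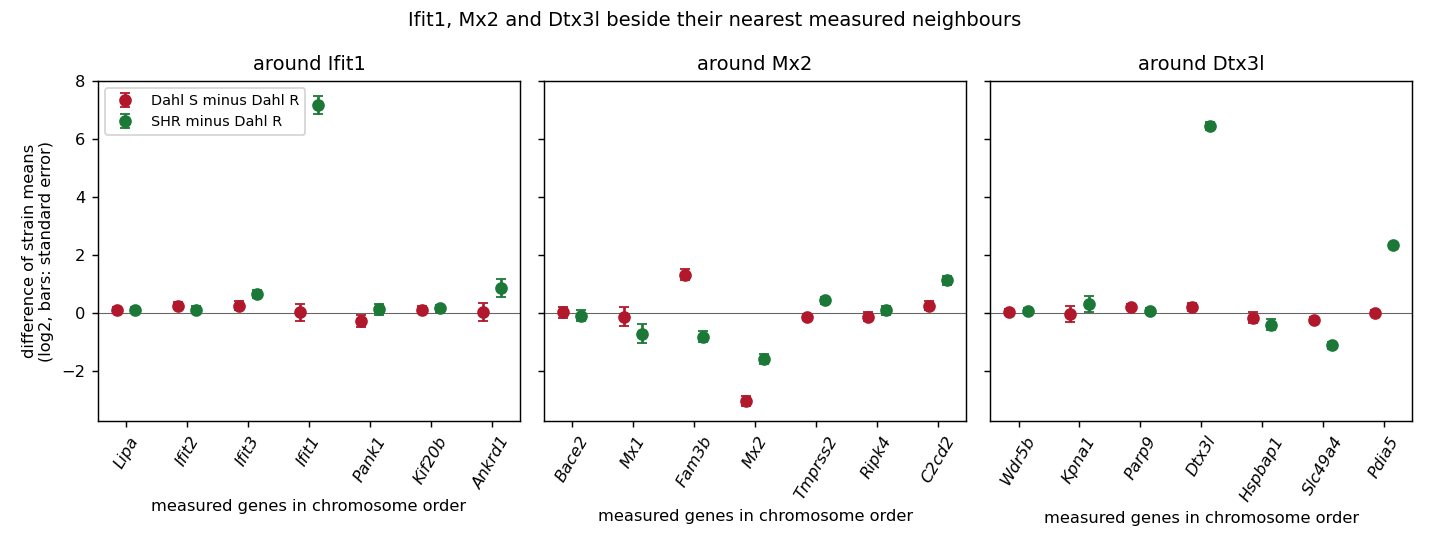
Log2 difference of Ifit1, Mx2 and Dtx3l and of the 3 nearest measured genes on each side in the annotated order, for Dahl S minus Dahl R (red) and SHR minus Dahl R (green), with standard errors as bars. Ifit1 and Dtx3l stand at 7.17 and 6.45 for SHR minus Dahl R, with Pdia5 at 2.33 as the next largest rise among the neighbours shown.

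The profiles most like those of Ifit1, Mx2 and Dtx3l over the arrays were found by the root mean square difference after each gene's own mean was taken off. Nearest to Ifit1 were Dtx3l (0.52 log2 units, 9 arrays), Nr1h4 (0.77), which encodes the bile acid receptor, Cyp8b1 (0.80, 8 arrays), a bile acid synthesis enzyme, and Stbd1 (0.92), a glycogen-binding protein. Dtx3l had the same genes nearest to it: Stbd1 (0.49), Nr1h4 (0.50), Ifit1 (0.52) and Cyp8b1 (0.55, 8 arrays). Nearest to Mx2 were Serpinc1 (0.40, 8 arrays), which encodes antithrombin, Mlc1 (0.53), Prss35 (0.56) and Tacr3 (0.59). No other interferon-induced gene of the list was among the 4 nearest to Mx2, and among these 3 lists of nearest profiles the listed genes appeared only as Ifit1 beside Dtx3l.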

How the data were processed

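Kidney RNA of 9 rats, 3 per strain by the labels, was measured on 9 one-colour arrays. The authors deposited scanner output of Agilent Feature Extraction 10.5.1.1, per the submitters' processing notes; its processed signal is an intensity that, per the file headers, is background-subtracted and not normalized between arrays. The authors also deposited a table of 19407 probes whose scale and normalization are not stated; the authors' values were read as log2, with what was done to them before deposit unknown, because r with log2 scanner signals was 0.974 for SHR replicate 3 and 0.999 to 1.00 for the others. Its medians were 9.63377 in 7 columns, 9.63 for SHR replicate 2 and 9.64 for SHR replicate 3.

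Control spots (1417 of each array) were left out, leaving 42136 spots. Processed signals were put on the log2 scale relative to the 75th percentile of each array, spots marked as outliers were set to missing, and spots of a probe were averaged; 0 spots were saturated. Testing required a share of 0.5 or more of a probe's spots well above background on 3 or more arrays, and a usable spot in each strain, which 26 probes past the signal filter lacked. RefSeq identifiers matched 14294 probes to a symbol; a gene with several probes was read from the one with the highest mean. limma 3.58.1 in R 4.3.3 was fitted to all 9 arrays with strain as the only term (lmFit, eBayes), with Benjamini-Hochberg adjustment over 16592 probes and a threshold of 0.05, and was tested on simulated data. The labels do not say whether rats shared a litter, so p-values measure the spread between these samples.

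The text names the 10 listed genes, the fixed signalling genes (1 of them is not reported here), the 8 largest called pathway genes per comparison and the 4 nearest profiles. The genes and lists were chosen with earlier results of these data known. Alternatives were normexp background correction (offset 50, on median signals in place of the planned mean signals), quantile normalization, the percentile without outlier spots, outlier spots kept, the authors' table, other filters on dim probes, the lowest probe of a gene, slide and replicate blocks, fits within a slide, and leaving out each array. The percentile without outlier spots was taken over probe means in place of single spots, so it changed both the spots used and the unit of the scaling. The array's probe design and RefSeq use different builds, so gene order comes from RefSeq alone. The sequence of each strain under the probes was not analysed here.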

Additional observations from a re-analysis of the deposited data

How the results depend on the processing

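Each gene of the list rests on 1 probe and 3 arrays per strain. The signs of the Ifit1 and Dtx3l differences from SHR, and of all 3 Mx2 differences, were kept under every alternative that gave a value. Ifit1 ranged from 4.46 to 7.46 for SHR minus Dahl R and from -7.45 to -3.02 for Dahl S minus SHR, with normexp at the low end; between the Dahl strains, where it was not above background, normexp gave 1.44. Leaving out any SHR array, or asking for signal on all 9 arrays, removed Ifit1 from the tested probes. Of the alternative values for single named genes, 1301 kept their side or moved within the spread, 42 moved by more, 78 lost the threshold and 2 gained it (Jak1 in both SHR comparisons without SHR replicate 1), and 2 turned sign with a call before or after: Trim14 (Dahl S minus SHR 0.22 under normexp) and Ifnar1 (Dahl S minus SHR -0.42 without SHR replicate 3, against 0.14 with it and 0.42 without SHR replicate 2, the ends of its range over left-out arrays). Another 66 values turned sign with no reversed call, the largest of these differences being 0.23 in size as reported; among them Ifit2 was -0.17 for Dahl S minus SHR with the percentile without outlier spots, Mx1 0.14 for Dahl S minus Dahl R under normexp, Parp9 -0.16 for SHR minus Dahl R with the authors' values and Oas1a 0.60 for Dahl S minus Dahl R under normexp. The cause was not tested.

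The other interferon pathway genes past the threshold numbered 2, 13 and 14 between the Dahl strains, between Dahl S and SHR, and between SHR and Dahl R. They numbered 0, 3 and 3 under normexp. With the percentile over probe means without outlier spots they numbered 0, 2 and 3, and without the filter on dim probes 1, 6 and 8. With signal required on all 9 arrays, Dahl S against SHR gave 20. For Dahl S against Dahl R, 1 gene passed with outlier spots kept and 1 with the authors' values. With slide as a block the counts were 1, 3 and 18; within slide 1 the first was 0, and within slide 2 the last was 10. At an unadjusted p under 0.05 the 3 counts of 0 (limma) were 4, 3 and 8 for normexp, the percentile and slide 1. The split of higher and lower calls in SHR against Dahl R, 9 and 5, became 8 and 7 with quantile normalization and 1 and 2 with the percentile without outlier spots; in Dahl S against SHR, 8 and 5 became 2 and 0 with the latter. The median over all tested probes moved from 0.11 to 0.36 with that percentile in SHR against Dahl R, and from -0.09 to -0.36 in Dahl S against SHR.

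Leaving out 1 array gave 1 to 3, 6 to 25 and 7 to 24 genes. The first count fell to 1 when any 1 array other than SHR replicate 3 was left out. The second was 6 without Dahl S replicate 2 or 3, 8 without Dahl R replicate 2 and 25 without SHR replicate 3. The third was 7, 9 and 8 without Dahl R replicates 1, 2 and 3, and 24 without SHR replicate 3. Replicate numbers did not pair the samples: same-numbered deviations correlated at r of -0.16 to 0.06, and with the replicate number as a block the counts were 1, 9 and 10.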
